A study of Mus musculus with 6 samples.

Results

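The interleukin 1 family was followed in 6 RNA libraries labelled as mouse tumour neutrophils as 10 genes, chosen by name: 4 agonist ligands (Il1a, Il1b, Il18 and Il36g), a receptor antagonist (Il1rn), a soluble binding protein (Il18bp), a decoy receptor (Il1r2) and 3 receptor chains that signal (Il1r1, Il1rap and Il1rl1). All 10 were found among the 21959 genes of the deposited expression values. The cells are labelled neutrophils of the mouse hepatoma Hepa1-6, a liver cancer cell line, and separated into 2 groups according to GPR35, a metabolite receptor coupled to G proteins. The 3 GPR35-negative and 3 GPR35-positive libraries are told apart in the labels by that status alone. Mouse strain, age, sex, genotype, site of the tumour and the way the cells were separated were not stated in the labels. Labels do not tie replicates to separate mice, so each p-value below covers the spread among these libraries, which may be technical. Levels are in FPKM, fragments scaled to the length of a gene and to the size of the library.

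Interleukin 1 alpha and interleukin 1 beta bind the receptor IL1R1, which then recruits the accessory chain IL1RAP, and the paired chains signal through the adaptor MYD88 to NF-kappaB. Signalling is held back in several ways: the antagonist IL1RN occupies IL1R1 without recruiting the accessory chain, the decoy IL1R2 binds ligand but lacks the signalling domain, and IL18BP captures interleukin 18. Neutrophils and macrophages are known sources of these ligands, and neutrophils are known for a high level of IL1R2. Only RNA was measured, and interleukin 1 beta and interleukin 18 are made as precursors that a protease must cut.

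The libraries held 15742742 to 18314104 reads assigned to genes, a depth recovered from the spacing of the FPKM values. Gpr35 itself ranged from 1.30 to 2.03 FPKM in the negative and from 18.2 to 21.9 FPKM in the positive group. The share of leukocyte RNA differed with the label: 10 pan-leukocyte genes had sums between 127 and 189 FPKM where GPR35 was negative and between 1418 and 1482 FPKM where it was positive, and each of the 10 rose. The sums of 18 mature neutrophil markers were 964 to 1236 and 10647 to 11586 FPKM, and those of 14 macrophage and monocyte markers 216 to 273 and 2321 to 2378 FPKM, with Trem2 listed at 0 in 1 library. Cd14 made up most of that macrophage and monocyte sum, at means of 199 and 1386 FPKM, 6.96-fold higher. The 12 markers of that list that were tested all rose, by ratios from 2.57 to 35.6 with a median of 20.5, and C1qa, C1qb, C1qc and Adgre1 lay between 32.9 and 35.6. The sums of 14 hepatocyte and hepatoma markers were 25443 to 26859 and 16983 to 17408 FPKM, above the neutrophil sum in every library. Trf, Krt18 and Krt8 made up most of these sums, at means of 7130, 4224 and 3604 FPKM in GPR35-positive libraries, so that comparison rests mainly on them. Serpina1a had a ratio of 1.65 and Apoa2 of 0.987, and the other markers of that list had ratios from 0.454 to 0.779. These marker levels go against reading the libraries as RNA of neutrophils alone. In such RNA, fewer leukocytes and less of a transcript per leukocyte cannot be told apart, and the part of these cell types in the differences below was not tested, beyond the values set beside each member.

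The start regions of the ligand genes Il1a, Il1b and Il36g are printed because they had the highest levels of the 4 agonists followed, all rose and have 1 listed start each. Each sequence is the 250 bases before the RefSeq start, 5′ to 3′ on the strand of the gene, in GRCm38.p6: chr2:129309973-129310222 on the reverse strand for Il1a, chr2:129371140-129371389 on the reverse strand for Il1b and chr2:24186226-24186475 on the forward strand for Il36g. Capitals mark matches to 5 motifs: AP-1 (TGANTCA), PU.1 (GAGGAAG), C/EBP (TTGCNNAA), the NF-kappaB motif, all on both strands, and the TATA box (TATAAA) on the forward strand only. No matches overlapped in these windows.
Il1a: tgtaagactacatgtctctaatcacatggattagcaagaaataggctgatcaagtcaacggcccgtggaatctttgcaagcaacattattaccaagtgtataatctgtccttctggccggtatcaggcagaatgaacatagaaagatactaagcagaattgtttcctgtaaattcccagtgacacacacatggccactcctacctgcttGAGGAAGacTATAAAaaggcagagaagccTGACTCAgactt
Il1b: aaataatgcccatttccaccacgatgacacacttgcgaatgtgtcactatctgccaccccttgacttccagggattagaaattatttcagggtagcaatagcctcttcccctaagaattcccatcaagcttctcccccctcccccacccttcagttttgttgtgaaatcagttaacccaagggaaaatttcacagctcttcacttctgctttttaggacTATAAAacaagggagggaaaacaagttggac
Il36g: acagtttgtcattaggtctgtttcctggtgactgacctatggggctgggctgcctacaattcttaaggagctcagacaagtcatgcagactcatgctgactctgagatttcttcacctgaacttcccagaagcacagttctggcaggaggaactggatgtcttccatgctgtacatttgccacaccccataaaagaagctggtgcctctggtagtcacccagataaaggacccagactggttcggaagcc

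Il1a and Il1b both held a TATA box match, from −32 to −27 and from −31 to −26 relative to the start, and 7.59% of 32851 mouse start regions of the same length held one. Il1a also held a PU.1 match from −41 to −35 and an AP-1 match from −12 to −6, motifs found in 10.6% and 6.75% of start regions. The Il36g window held no match to any of the 5, nor did the Il1b window beyond its TATA box. The shares for C/EBP and NF-kappaB over all start regions were 9.56% and 7.25%. These are matches of letters and not measured sites.

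All 4 agonist ligand genes rose in GPR35-positive libraries, and Il1a, Il18 and Il36g rose by larger ratios than Il1b. Differences were tested with limma on log2(FPKM + 1) over the 10060 genes that reached 1 FPKM in 3 or more libraries, and a gene is said to rise or fall where the Benjamini-Hochberg adjusted p was below 0.05. Of the 10 family genes, 8 passed that filter and all 8 rose, while 23.3% of all genes tested rose and 45.5% fell. With median-of-ratios scaling all 8 rose again, beside 29.3% of genes that rose and 23.7% that fell. For each of the 8 the groups did not overlap, which held for 24.3% of genes with GPR35-positive libraries higher and 48.2% with them lower. A ratio of means of at least 8 was reached by 7 of the 8 and by 4.64% of genes tested, and one of at least 10 by 6 of the 8 and by 3.11%. Il1rap and Il18 passed the filter only through the GPR35-positive libraries, with none and 2 of their GPR35-negative libraries at 1 FPKM or above. Both are also among the genes counted at ratios of at least 8 and 10. The count of 8, the counts by ratio and the median that follows are therefore no support for a common direction. The median log2 difference of the 8 was 3.21, against −0.19 for all genes tested.

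**Figure D1:**
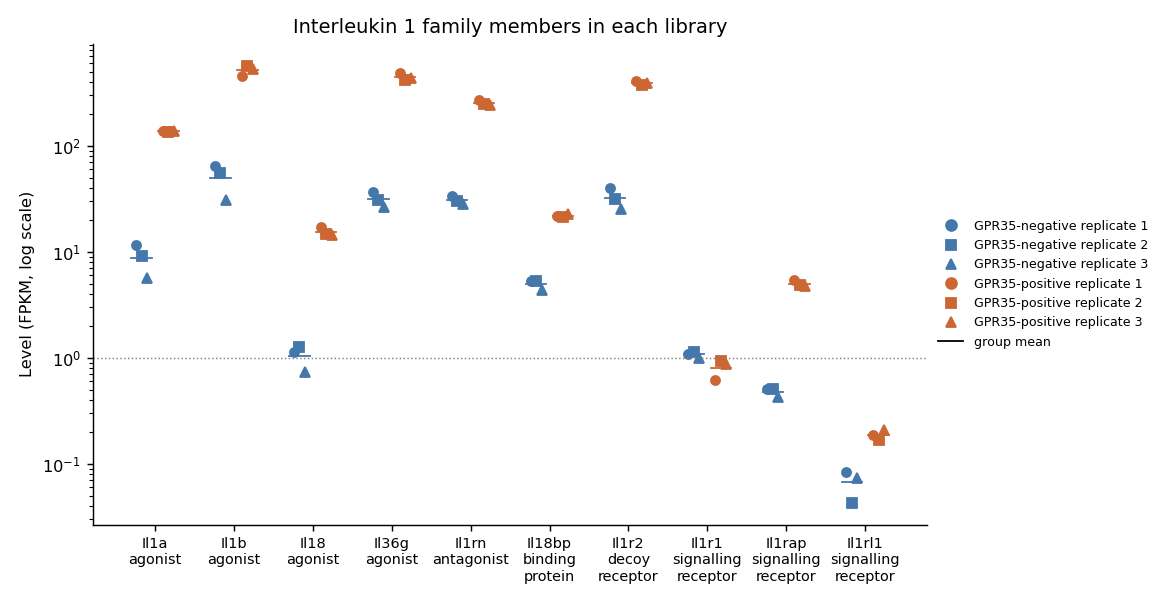
Level of each family gene in FPKM (log axis) in the 3 GPR35-negative (blue) and 3 GPR35-positive (orange) libraries, with short lines at group means and a dotted line at the filter of 1 FPKM. Il1r1, near 1 FPKM throughout, is the gene whose GPR35-positive points lie below the GPR35-negative ones as deposited, although they overlap with median-of-ratios scaling.

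Il1b, which encodes the interleukin 1 agonist that inflammasome caspases release, was at 64.6, 54.8 and 31.0 FPKM in GPR35-negative replicates 1 to 3 and at 459, 568 and 529 FPKM in GPR35-positive replicates 1 to 3. Every GPR35-positive library was above every GPR35-negative one, and GPR35-negative replicate 3 was the lowest. Means were 50.1 ± 17.3 and 519 ± 55.3 FPKM (SD, n = 3 each), 10.3-fold higher, and the log2 difference was 3.40 (SE 0.21, limma adjusted p = 2.69e-07).

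Il1a, the agonist that is active as a precursor and acts on the same receptor, was at 11.6, 9.15 and 5.70 FPKM in GPR35-negative and 137, 136 and 138 FPKM in GPR35-positive libraries. The GPR35-positive libraries were nearly equal, while the GPR35-negative ones spread as they did for Il1b, with replicate 3 lowest. The ratio of means was 15.6, and the log2 difference was 3.86 (SE 0.18, limma adjusted p = 2.39e-08), the 19th largest of all genes tested.

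Il36g encodes interleukin 36 gamma, an agonist that signals through another receptor pair of the family. It was at 37.0, 30.8 and 26.5 FPKM in GPR35-negative and 482, 414 and 434 FPKM in GPR35-positive libraries, with no overlap. The ratio of means was 14.1 and the log2 difference 3.78 (SE 0.11, limma adjusted p = 1.24e-09).

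Il18, the gene of an agonist that promotes interferon gamma production by lymphocytes, was the lowest of the ligands chosen. It was at 1.12, 1.26 and 0.739 FPKM in GPR35-negative libraries, from 12 to 22 reads, and at 16.98, 14.7 and 14.5 FPKM in GPR35-positive ones, from 248 to 300 reads. The groups did not overlap, and the ratio of means, 14.8, rests on few reads on the GPR35-negative side. The log2 difference was 3.01 (SE 0.11, limma adjusted p = 5.18e-09), and it was 3.87 with limma-voom on the reads, where the added 1 FPKM does not shrink it.

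The genes that restrain the ligands rose as well, Il1rn by a ratio close to that of pan-leukocyte genes and Il18bp by a smaller one. Il1rn, the receptor antagonist gene, was at 33.9, 29.8 and 28.0 FPKM in GPR35-negative and 272, 248 and 241 FPKM in GPR35-positive libraries. The ratio of means was 8.30 and the log2 difference 3.02 (SE 0.08, limma adjusted p = 1e-09). The 10 pan-leukocyte genes had ratios from 4.27 to 10.9 with a median of 8.25.

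Il18bp, which encodes the secreted protein that binds interleukin 18, was at 5.25, 5.31 and 4.39 FPKM in GPR35-negative and 21.8, 21.3 and 22.9 FPKM in GPR35-positive libraries. Each group was tight and the groups lay apart. The ratio of means was 4.41, the lowest of the 8 family genes tested, and the log2 difference was 1.94 (SE 0.09, limma adjusted p = 1.68e-08).

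Il1r2, the decoy receptor gene, was at 39.7, 31.3 and 25.2 FPKM in GPR35-negative and 408, 376 and 388 FPKM in GPR35-positive libraries. The ratio of means was 12.2 and the log2 difference 3.59 (SE 0.13, limma adjusted p = 4.17e-09). The 18 mature neutrophil markers had ratios from 5.30 to 16.6 with a median of 10.3. The ends of that range were Ly6g and Fpr2, which passed the filter only through the GPR35-positive libraries. The other markers ran from 7.12 to 13.6, and Il1r2 lay within that narrower range too.

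The receptor chains that signal were all low, and they did not move together. Il1rap, the accessory chain shared by several receptors of the family, was at 0.510, 0.504 and 0.425 FPKM in GPR35-negative and 5.38, 4.82 and 4.72 FPKM in GPR35-positive ones. The groups lay far apart, with a ratio of means of 10.4. Its log2 difference of 2.01 (SE 0.08, limma adjusted p = 8.55e-09) became 3.36 with limma-voom on the reads, since the added 1 FPKM weighs on a gene below 1 FPKM.

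Il1r1, the chain that binds interleukin 1 itself, was at 1.09, 1.13 and 0.998 FPKM in GPR35-negative and 0.615, 0.924 and 0.867 FPKM in GPR35-positive libraries. It missed the filter, since 0.998 FPKM lies just below 1 and the test needed 3 libraries at or above it. The reads behind these values were 120, 122 and 100 against 67, 96 and 101, and the exact 95% Poisson intervals of single libraries (counting error alone) ran from 81.4 to 146 and from 51.9 to 123 reads. The ratio of means was 0.746. Without a filter the log2 difference was −0.21 (limma adjusted p = 0.102), and with limma-voom on all reads it was −0.44 (adjusted p = 0.0768), so Il1r1 was not called by either test, while 22.1% and 23.1% of genes fell in them. With median-of-ratios scaling the groups overlapped, at 0.939 to 1.05 and 0.654 to 0.987 FPKM (log2 difference −0.11, limma adjusted p = 0.401, where 20.4% of genes rose and 10.3% fell). As deposited they did not overlap, which was so with GPR35-positive libraries lower for 27.4% of the 19818 genes above 0. The 14 hepatocyte and hepatoma markers had a median ratio of 0.657. The sums of 8 fibroblast and stellate markers were 13.5 to 18.1 and 31.3 to 38.1 FPKM. Acta2 made up most of that difference, at means of 2.21 and 13.8 FPKM. The other markers of that list that were tested had ratios from 1.27 to 2.20. Below the filter, Lum and Pdgfrb had ratios of 2.39 and 2.53 and Pdgfra of 0.809. The sums of 8 endothelial markers were 14.3 to 15.9 and 13.6 to 14.6 FPKM, with Cdh5 and Tek listed at 0 in at least 1 library. The cell source of Il1r1 was not tested.

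Il1rl1, the receptor gene for interleukin 33 that mast cells and type 2 innate lymphocytes are known to express, was the lowest of the 10. It was at 0.0841, 0.0428 and 0.0737 FPKM in GPR35-negative and 0.186, 0.169 and 0.206 FPKM in GPR35-positive libraries, from 10, 5 and 8 reads and 22, 19 and 26 reads. The exact 95% Poisson intervals of single libraries overlapped between the groups and reached from 1.62 to 18.4 reads in the first group and from 11.4 to 38.1 reads in the other. Il1rl1 was below the filter, and without a filter its log2 difference was 0.15 (limma adjusted p = 0.00316), or 1.48 with limma-voom on all reads (adjusted p = 0.00844). Without a filter 17.4% of 19818 genes rose in the first of these tests and 19% of 19296 in the other. Its ratio of means was 2.80. Summed, 10 mast cell, basophil and eosinophil markers were at 7.92 to 12.9 FPKM in the negative and 25.4 to 32.3 FPKM in the positive group. The ratio of these sums was 2.85, with Epx and Prg2 listed at 0 in at least 1 library. Cma1, Cpa3, Tpsb2 and Mcpt4 weighed most in that sum. The 5 markers tested had ratios from 2.75 to 7.12. Those below the filter overlapped between the groups, and Gata2 and Prg2 had ratios of 0.901 and 0.600. The cell source of Il1rl1 was not tested. The sum of 10 T, NK and innate lymphoid markers was 30.7 to 40.6 and 30.5 to 32.1 FPKM. Nkg7 made up most of it, at means of 27.4 and 23.1 FPKM. Il7r, tested only through the GPR35-positive libraries, had a ratio of 4.12, and the other markers tested had ratios from 0.842 to 0.930. Those below the filter had ratios from 0.406 to 3.72, with Gata3 at 0.724.

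**Figure D2:**
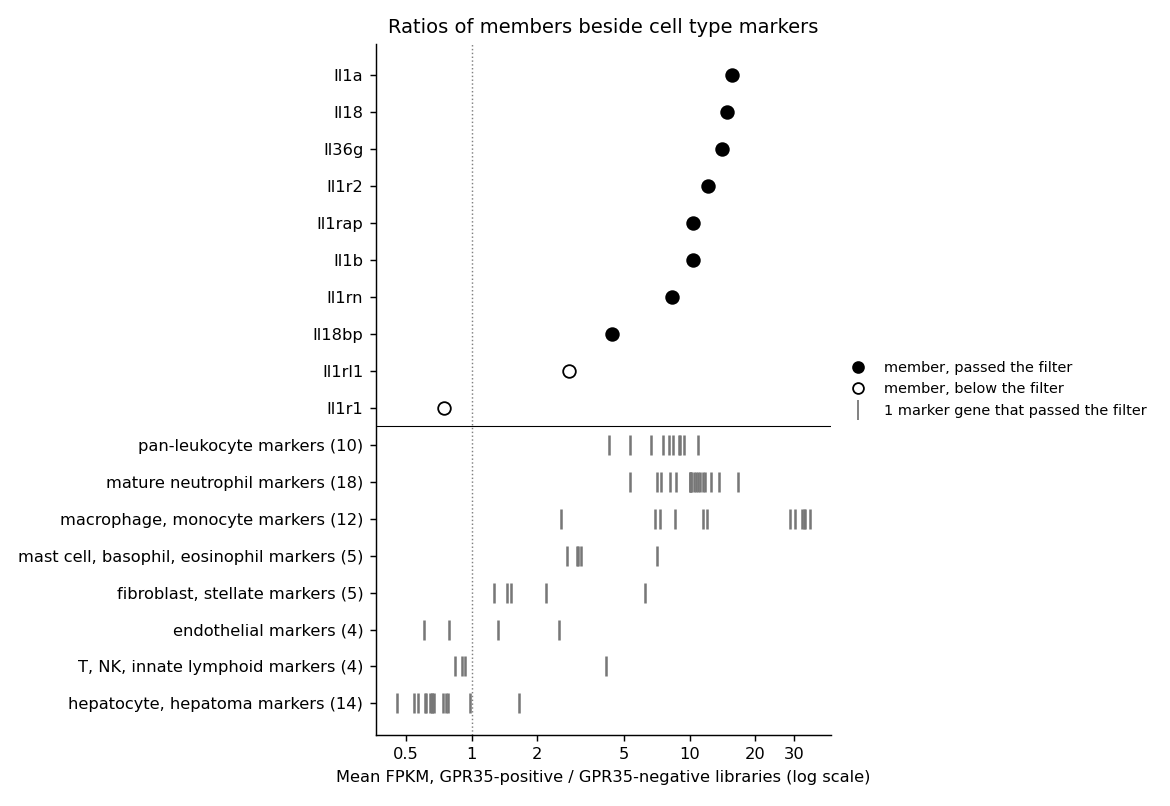
Ratio of mean FPKM in GPR35-positive to GPR35-negative libraries (log axis) for the 10 family genes (circles, open where below the filter) and for marker genes that passed the filter (ticks, their number in parentheses). Family genes other than Il1r1 lie right of 1, between 2.80 and 15.6, while hepatocyte and hepatoma markers range from 0.454 to 1.65.

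Set against the leukocyte RNA of the same library, the family divided. Each gene was expressed per 1000 FPKM of the 10 summed pan-leukocyte genes, a sum in which Tyrobp and Cd53 weigh most, and these values are descriptions with no test. Il1b was 312 ± 59.2 in GPR35-negative and 356 ± 30.1 in GPR35-positive libraries (SD, n = 3 each), and Il1rap 3.09 ± 0.342 and 3.42 ± 0.326, both with overlapping groups. Il1rn was 197 ± 21.04 and 174 ± 15.2, also with overlap. The differences of these 3 genes were within the spread between libraries.

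Il1a, Il18, Il36g and Il1r2 were higher per leukocyte RNA in every GPR35-positive library, by ratios of 1.71, 1.60, 1.52 and 1.32. Il18bp, Il1rl1 and Il1r1 were lower in every GPR35-positive library, by ratios of 0.470, 0.296 and 0.0787. The pan-leukocyte sum itself differed 9.27-fold, so a gene with equal FPKM in both groups is also low by this measure. Il1r1, at a ratio of 0.746 before this step, is such a case. These low ratios do not show a lower level within leukocytes. Per summed mature neutrophil markers the order was alike, with 1.58 for Il1a, 1.05 for Il1b, 0.825 for Il1rn and 0.438 for Il18bp, and the Il1rn groups no longer overlapped.

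**Figure D3:**
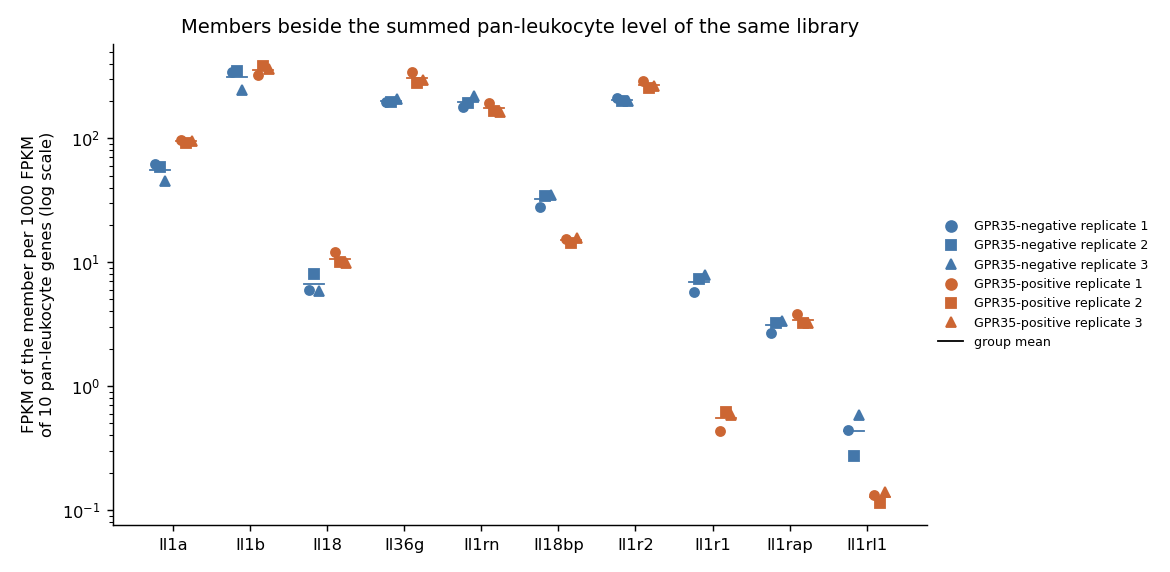
FPKM of each family gene per 1000 FPKM of 10 summed pan-leukocyte genes in the same library (log axis), with group means as short lines. Il1b, Il1rn and Il1rap overlap between the groups, Il1a, Il18, Il36g and Il1r2 are higher and Il18bp, Il1r1 and Il1rl1 lower in GPR35-positive libraries.

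Ratios between family genes within a library do not depend on how libraries are scaled, and they show how agonist and antagonist transcripts were balanced. For each of 6 pairs the log2 ratios were compared with a two-sided exact permutation test, which cannot go below p = 0.1 with 3 libraries a group, so that no pair can pass a threshold of 0.05. The antagonist-to-agonist ratio Il1rn/Il1b was 0.525, 0.545 and 0.902 in GPR35-negative and 0.593, 0.436 and 0.456 in GPR35-positive libraries. The groups overlapped (exact permutation p = 0.3, also 0.3 after adjustment over 6 pairs). The 0.902 of GPR35-negative replicate 3 stood apart, and without that library the log2 difference of −0.38 was −0.12.

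Il1rn/Il1a was 2.92, 3.26 and 4.91 in GPR35-negative and 1.99, 1.82 and 1.74 in GPR35-positive libraries, without overlap (log2 difference −0.96). Il1a/Il1b was 0.180, 0.167 and 0.184 against 0.299, 0.240 and 0.262, so that Il1a made up a larger part of the interleukin 1 agonist transcripts in every GPR35-positive library (log2 difference 0.59). Il18bp/Il18 was 4.67, 4.21 and 5.93 against 1.28, 1.44 and 1.58, a 3.42-fold lower ratio of binding protein to ligand transcripts. In each of these 3 pairs the exact permutation p was 0.1, the smallest possible, and 0.12 after adjustment.

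The receptor pairs differed most. The decoy-to-receptor ratio Il1r2/Il1r1 was 36.3, 27.7 and 25.2 in GPR35-negative and 663, 407 and 447 in GPR35-positive libraries, 16.8-fold higher. Il1r1/Il1rap was 2.14, 2.25 and 2.35 against 0.114, 0.192 and 0.184, 14.1-fold lower. Which chain was the higher one in GPR35-negative libraries depends on the length used: per longest coding transcript the ratio there was 0.932, 0.977 and 1.02, near equal levels, and in GPR35-positive libraries it was 0.0497, 0.0834 and 0.0799, with Il1r1 below Il1rap by either length. Both had an exact permutation p of 0.1, or 0.12 adjusted over 6 pairs. Whether these ratios hold within any single cell type was not tested.

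**Figure D4:**
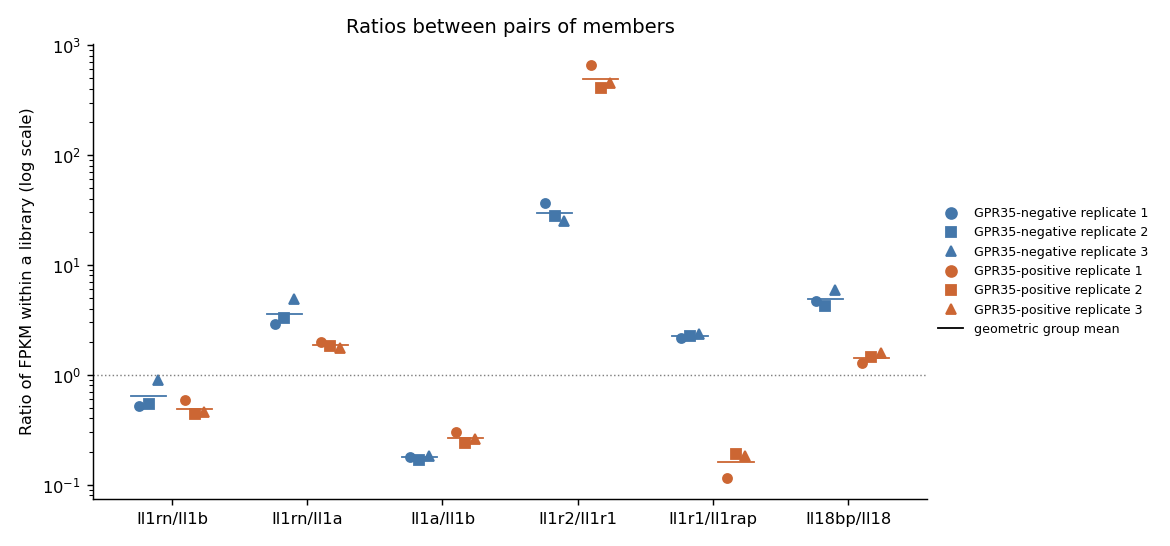
Ratio of FPKM between 2 family genes within each library (log axis), for 6 pairs, with geometric group means as short lines and a dotted line at equal levels. Il1rn/Il1b overlaps between the groups, while Il1r2/Il1r1 reaches 407 to 663 in GPR35-positive libraries against 25.2 to 36.3.

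By level per length, the order in GPR35-positive libraries was Il1b at 519, Il36g at 443, Il1r2 at 391, Il1rn at 254, Il1a at 137, Il18bp at 22.0, Il18 at 15.4, Il1rap at 4.97, Il1r1 at 0.802 and Il1rl1 at 0.187 FPKM. Only Il1b and Il36g overlapped among neighbours in that order. In GPR35-negative libraries Il1b, Il1r2, Il36g and Il1rn overlapped at means of 50.1, 32.1, 31.5 and 30.6 FPKM, and Il1r1 and Il18 overlapped at 1.07 and 1.04 FPKM. The deposited FPKM use the length of all annotated exons of a gene, which is 5535 bases for Il1rn against 2474 for its longest coding transcript, 1907 against 1356 for Il1b and 11360 against 4520 for Il1rap. Per longest coding transcript, the GPR35-positive means were 729 for Il1b, 568 for Il1rn, 525 for Il1r2 and 443 for Il36g, which places the antagonist second. Il1rap moved most by this length, from 4.97 to 12.5, and kept its place below Il18. The ratio Il1rn/Il1b became 0.834, 0.866 and 1.43 in GPR35-negative and 0.943, 0.694 and 0.726 in GPR35-positive libraries, still overlapping. This length was chosen after the data were seen. Il1rn also had the most reads of the 10, 22392 to 25802 in GPR35-positive libraries against 14998 to 18471 for Il1b.

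The family genes lie in 3 groups of neighbours and some places of their own in GRCm38. Il1a (ENSMUSG00000027399, 129299610 to 129309972) and Il1b (ENSMUSG00000027398, 129364570 to 129371139) lie near each other on the reverse strand of chromosome 2. Far from them on the same chromosome, Il36g (ENSMUSG00000044103, 24186476 to 24193568) and Il1rn (ENSMUSG00000026981, 24336853 to 24351494) lie near each other on the forward strand. The receptor genes Il1r2 (40074079 to 40125231), Il1r1 (40225080 to 40317257) and Il1rl1 (40429570 to 40465415) lie in that order on the forward strand of chromosome 1. They were the member with a 12.2-fold rise, the one at 0.746 and the lowest one. Il18 is on chromosome 9, Il1rap on chromosome 16 and Il18bp on chromosome 7. Exons of Il1a, Il1b, Il1rap and Il18bp overlap genes of the other strand by 222, 25, 552 and 80 bases, and reads there cannot be assigned without knowing whether counting used strand. Secreted, membrane and intracellular forms of Il1rn, Il1r2, Il1rap and Il1rl1 share 1 gene value each.

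By likeness over the 6 libraries, measured as the root-mean-square difference of mean-centred log2(FPKM + 1) values, the 5 genes closest to Il1b were Tyrobp, an adaptor of myeloid receptors, the lectin gene Clec4d, Slfn4, the alarmin gene S100a9 and the pyrin gene Mefv, at 0.14 to 0.17. Those closest to Il1rn were the class II gene H2-Ab1, the phosphodiesterase gene Pde4b, Rgs2, Cd300lb and Cxcr2, at 0.03 to 0.07. Mean levels were 69.2 and 754 FPKM for Tyrobp and 86.5 and 730.0 FPKM for H2-Ab1 in GPR35-negative and GPR35-positive libraries.

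Other ligands and receptors of the family moved in both directions. Of 11 further family genes 4 passed the filter: Il18rap and Il18r1, the chains of the interleukin 18 receptor, rose, and Il33 and Sigirr fell. Il18rap and Il18r1 passed it only through the GPR35-positive libraries. All genes tested rose in 23.3% and fell in 45.5% of cases. Il18rap was at 1.31, 0.927 and 0.781 FPKM in GPR35-negative and 8.92, 9.33 and 9.33 FPKM in GPR35-positive libraries (log2 difference 2.36, limma adjusted p = 1.6e-08). Il33, the alarmin ligand of the Il1rl1 product, was at 24.9, 22.4 and 22.2 against 16.3, 16.3 and 15.9 FPKM (log2 difference −0.49, limma adjusted p = 0.000229), with a ratio of means of 0.699. Sigirr, an inhibitory receptor of the family, had a ratio of 0.658 (limma adjusted p = 0.00021). The hepatocyte and hepatoma markers had a median ratio of 0.657, while 45.5% of all genes tested fell. The cell source of Il33 and Sigirr was not tested. Il36a, a second interleukin 36 agonist, had 1, 0 and 0 reads in GPR35-negative and 21, 13 and 20 in GPR35-positive libraries, below the filter. The interleukin 36 receptor gene Il1rl2 had 12, 14 and 7 reads against 58, 34 and 77, also below it, and Il36rn, Il36b, Il1f10, Il1rapl1 and Il1rapl2 had at most 5 reads in any library.

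Genes that carry the signal from the receptors rose in part. Of 22 listed, 20 were tested, 10 rose, 3 fell and 7 did not pass, with a median log2 difference of 0.21 against −0.19 for all genes tested. Among all genes tested 23.3% rose and 45.5% fell. Map3k8, the kinase TPL2 that links NF-kappaB1 to MAP kinases, was at 9.13, 11.2 and 9.56 FPKM in GPR35-negative and 94.5, 91.9 and 92.2 FPKM in GPR35-positive ones, 9.30-fold higher (log2 difference 3.10, limma adjusted p = 8.16e-10). Irak3, an inhibitory member of the receptor kinase family, rose 3.70-fold, Nfkb1 3.93-fold and the kinase gene Irak2 3.14-fold. The adaptor gene Myd88 rose 2.005-fold, from 9.71 to 19.5 FPKM (limma adjusted p = 7.46e-05). Irak1, Irak4, Traf6, Map3k7, Tollip, Ikbkb and Rela did not pass, with ratios of 0.876 to 1.06. Tab1, Peli2 and Ikbkg fell. Median-of-ratios scaling moved the median of all genes tested from −0.19 to −0.03, and under it Peli2 and Ikbkg did not fall (limma adjusted p = 0.0789 and 0.214).

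Genes that process and release the ligands moved in both directions. Of 20 listed, 17 were tested, 9 rose, 3 fell and 5 did not pass, with a median log2 difference of 0.82. Over all genes tested 23.3% rose and 45.5% fell. Pycard passed the filter only through its GPR35-positive libraries. With median-of-ratios scaling 11 rose, with Casp8 and Aim2 added (limma adjusted p = 0.00582 and 0.00882), where 29.3% of all genes tested rose and 23.7% fell. Nlrp3, the sensor of the inflammasome that activates caspase-1, was at 9.22, 9.43 and 9.85 FPKM in GPR35-negative and 96.1, 130 and 113 FPKM in GPR35-positive libraries (log2 difference 3.43, limma adjusted p = 1.33e-09). Mefv, another inflammasome sensor, rose 12.1-fold and Ctss, a cathepsin that can cut interleukin 36 gamma, 26.6-fold. Ninj1, whose product ruptures the membrane of dying cells, rose 3.18-fold to 566 FPKM. The caspase-1 gene itself moved less: Casp1 rose 2.04-fold, from 2.79 to 5.70 FPKM (limma adjusted p = 0.000126). Casp4, another caspase gene of the list, rose 8.79-fold, from 1.81 to 15.9 FPKM (limma adjusted p = 2.62e-08). The adaptor gene Pycard rose 3.45-fold and the pore gene Gsdmd 1.91-fold. Capn1, Capn2 and Prtn3 fell, to ratios of 0.541, 0.621 and 0.552; calpains cut the interleukin 1 alpha precursor and proteinase 3 cuts several ligands of the family. The neutrophil elastase gene Elane had at most 10 reads in any library and the cathepsin G gene Ctsg at most 4.

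Genes known to respond to interleukin 1 divided by gene. Of 24 listed, 20 were tested, 13 rose, 3 fell and 4 did not pass, with a median log2 difference of 1.28. The shares over all genes tested were 23.3% rising and 45.5% falling. Vcam1, Saa3, Orm1 and Csf3 were below 1 FPKM in every GPR35-negative library, so they were tested only through the GPR35-positive ones. Vcam1, an adhesion molecule, rose 28.0-fold from 0.806 to 22.6 FPKM, the chemokine gene Cxcl2 8.88-fold from 87.5 to 777 FPKM, the prostaglandin synthase gene Ptgs2 9.27-fold and the NF-kappaB inhibitor gene Nfkbia 3.73-fold. The limma adjusted p of these 4 was 4.81e-10 to 6.31e-09. Cxcl1 and Ccl20 did not pass, at 46.2 and 40.8 FPKM and at 1.33 and 1.11 FPKM. C3, Cxcl5 and Ptges fell, and with median-of-ratios scaling Cxcl5 and Ptges did not (adjusted p = 0.15 and 0.358). Of the acute-phase genes, Saa3 rose 4.43-fold from 0.697 to 3.09 FPKM and Orm1 3.45-fold from 0.643 to 2.22 FPKM (limma adjusted p = 1.28e-06 and 1.49e-05). Hp and Lcn2 did not pass as deposited and passed, higher, with that scaling (adjusted p = 0.0159 and 0.00827), while Saa1 and Saa2 were at or near 0 in all libraries. Many of these genes are also leukocyte genes, and the summed pan-leukocyte level differed 9.27-fold between the same libraries.

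**Figure D5:**
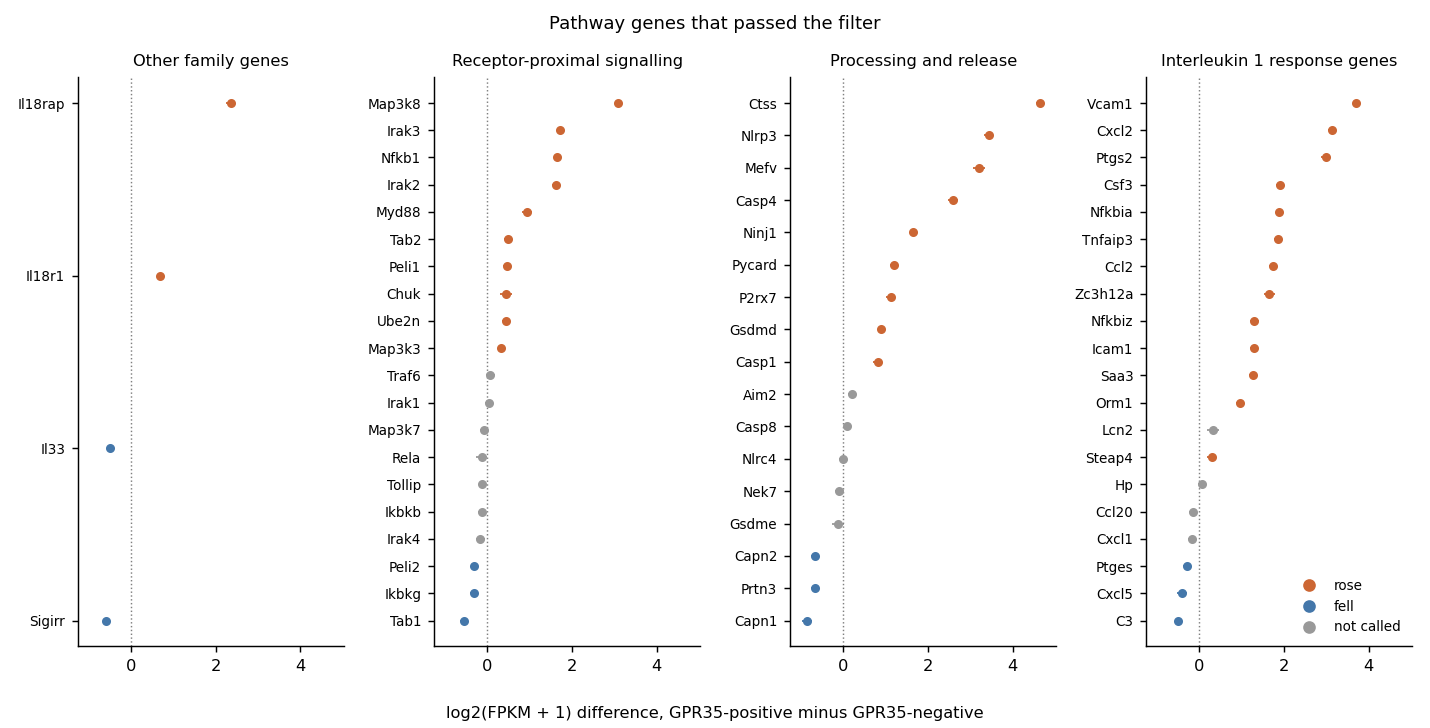
Difference in log2(FPKM + 1), GPR35-positive minus GPR35-negative, with its standard error, for pathway genes that passed the filter, coloured by whether they rose, fell or were not called as deposited. Ctss, Vcam1, Nlrp3 and Map3k8 lie between 3.10 and 4.65, and fewer genes lie left of 0, down to −0.85 for Capn1.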

How the data were processed

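The values are FPKM per gene and library as the authors deposited them, per the file headers. Per the labels' protocols, Trizol RNA went into NEBNext Ultra II libraries. The submitters' processing notes list fastp 0.22.0, HISAT2 2.1.0, HTSeq 0.9.1, DESeq 1.38.3 and the human build GRCh38 with no role given, although the gene IDs are mouse. IDs were matched to GENCODE M21 (GRCm38; 21851 of 21959), where Il36g carries its older symbol. With M21 exon lengths 97.5% of values above 0 were whole reads within 0.02.

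The fit was limma-trend (limma 3.58.1, R 4.3.3), two-sided, group as only term, all 6 libraries. Python 3.11.15, pandas 2.3.3 and scipy 1.17.1 gave ratios and exact tests. The script was tested on simulated data. The members and lists were chosen with earlier results of these data known. Named pathway genes are up to 4 per list with the smallest p; others were named after their values were seen. Replicates differed by more than sampling noise (mean chi-square per gene 5.4 to 21.9). Alternatives were pseudocount, filter, scaling, limma-voom, replicate block and left-out libraries. No value column was left out.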

Additional observations from a re-analysis of the deposited data

How the results depend on the processing

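All 8 family genes that passed the filter rose under every alternative that was run, with log2 differences from 1.87 for Il18bp to 4.07 for Il1a and adjusted p at most 5.2e-05. Il1rap and Il18 passed only through the GPR35-positive libraries, and the shares over all genes were not counted for every alternative. That count is therefore no support for a common direction. For the genes below the filter, the difference with a pseudocount of 0.1 FPKM was −0.40 for Il1r1 and 0.79 for Il1rl1, and with limma-voom on all reads −0.44 and 1.48, against −0.21 and 0.15; a smaller added value shrinks low genes less. With a pseudocount of 1 FPKM on both genes the log2 ratio differences were 0.46 for Il1a/Il1b, −2.22 for Il1r1/Il1rap and −1.07 for Il18bp/Il18, against 0.59, −3.82 and −1.77 with none. Without a filter 5 further family genes rose, against 2 with it, while 17.4% of 19818 genes rose without a filter and 23.3% of 10060 with it. The added genes include Il36b, with at most 3 reads in any library, and Il36a, with at most 1 read in any GPR35-negative library. With median-of-ratios scaling 1 signalling gene and 1 response gene fell, against 3 and 3, and over all genes tested 2950 rose and 2392 fell, against 2342 and 4575 as deposited. Leaving out 1 library at a time, the log2 differences of the members tested lay between 1.87 for Il18bp and 4.07 for Il1a. The log2 ratio difference of Il1rn/Il1b then ranged from −0.52 to −0.12.

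With the replicate number as a block, the log2 differences of the members tested equalled those without it. Their limma adjusted p was then at most 4.5e-06, for Il1b. The correlations of same-numbered libraries' deviations were −0.0018, 0.4 and −0.0642, and those of differently numbered ones ran from −0.3728 to 0.2479. Deviations were taken from means of 3 libraries, which ties the correlations to each other. They cannot decide whether the numbers pair the libraries. Depth limits Il1rl1 most, at 5 to 26 reads a library.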
